A study of Danio rerio with 45 samples.

Results

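The comparison set the middle of the zebrafish embryo against its animal end at 3 hours post fertilisation (hpf), a stage of about 1000 cells. Its members were the 3 libraries of section C and the 3 libraries of section A of that stage, 6 of the 45 samples of the series, chosen by the stage, section and replicate number in their labels. The series cut Danio rerio embryos of 1, 2 and 3 hpf (about 4, 64 and 1000 cells) along the animal-vegetal axis into 5 sections, from A at the animal pole to E at the vegetal pole, and sequenced the RNA of each section. The 3 hpf section C group and the 3 hpf section A group came from the same 3 biological replicates, so each C library has an A library of its own number. The 1 hpf sections C and A, also 3 libraries each, served for a comparison of stages. The labels name no genotype or treatment, and whether a replicate was 1 embryo or a pool is not given in the sources used here.

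In the zebrafish egg, some maternal RNAs are anchored at the vegetal pole, among them RNAs that specify the dorsal side and RNAs of the germ plasm, the cytoplasm that sets germ cells aside. After fertilisation the cytoplasm streams into the animal pole, where the cells form, while vegetal RNAs travel along the yolk toward the cells. Transcription of the embryo's own genome begins in earnest at around this stage, with the miR-430 microRNA genes and a set of transcription factor genes among the first to be active.

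Total counts ran from 3015842 to 5224399 in the section C libraries and from 4316597 to 5398317 in the section A libraries. Values are in CPM (reads of a gene for each 1e6 reads of the library), scaled by TMM factors, which put libraries on a common scale. Libraries were made from equal amounts of RNA, so a value is a share of a section's RNA. In sections of this kind, fewer cells of a type and less RNA per cell cannot be told apart. The C and A libraries of replicate 3 stood apart together: for genes of at least 10 CPM, their deviations from the section means correlated with each other at 0.888 and with the other section's replicates 1 and 2 at -0.65 to -0.75 (across genes, which are not independent replicates). Deviations cancel out over the 3 libraries of a section, so part of the negative sign follows from the measure. Because replicate 3 stood apart, the totals of called genes, and the lists whose calls changed, are also given without each replicate. The counts of genes by their highest section are given over all 3 replicates only.

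For 9501 genes of at least 10 CPM, the median size of the log2 ratio between the sections was 0.184, 0.147 and 0.135 in replicates 1, 2 and 3. The median signed log2 fold change of C over A was 0.0072 over 12625 genes tested, a value that the scaling sets close to 0. The germ cell gene dazl, the vertnin gene vrtn and the Wnt effector gene lef1 were several fold higher in section C, and the nuclear envelope gene syne2a and the lipid transporter gene abca3b were lower there. With edgeR's quasi-likelihood test and a Benjamini-Hochberg adjusted p under 0.05, 110 genes (0.871%) were higher in section C and 25 (0.198%) were lower, 135 (1.07%) in all, and 743 (5.89%) had an unadjusted p under 0.05. Each of the 135 differed in the same direction in 3 of 3 replicates. A choice by a test on these same libraries favours such agreement, and the share over all genes is not given here. The 110 higher genes had a median log2 fold change of 0.96, and 47 of them were over 1. The 25 lower genes had a median of -0.72, and 5 of them were under -1.

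The number of genes passing depended on the fit. Leaving out replicate 1, 2 or 3 gave 52, 19 and 184 genes. Without the replicate block the count was 18, all of them among the 135. A fit of the 6 libraries alone gave 523, which contained all 135, with 2 residual degrees of freedom against 8 for the 15 libraries of the stage.

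**Figure D1:**
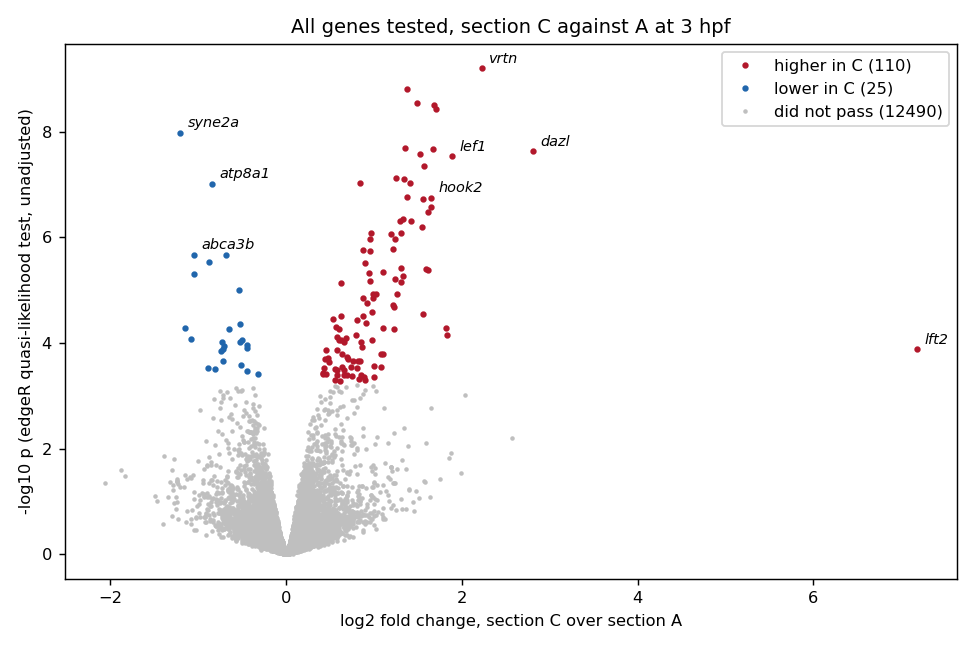
Every gene tested, by its log2 fold change of section C over section A at 3 hpf (x axis) and −log10 of its unadjusted edgeR p (y axis). The 110 genes higher in C reach further from 0 than the 25 lower ones, and lft2, which had no read in section A, stands at a fitted value that is not a bound.

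The largest called difference with reads in both sections was that of dazl, which encodes an RNA-binding protein of germ cells. Its level was 447, 358 and 141 CPM in C of replicates 1, 2 and 3, against 42.1, 37.9 and 45.3 CPM in A. Every C library lay above every A library, and the C libraries were the more spread. C over A came to 2.81 ± 0.32 on the log2 scale (SE; edgeR adjusted p = 3.29e-05). For vrtn, which encodes a DNA-binding protein, the C libraries held 206, 145 and 84.7 CPM and the A libraries 33.1, 27.8 and 28.8 CPM. The groups did not overlap, and the log2 fold change was 2.23 ± 0.21 (edgeR adjusted p = 7.98e-06). The HMG-box transcription factor gene lef1, which acts with beta-catenin in Wnt signalling, had 151, 67.2 and 54.6 CPM in C and 33.1, 17.2 and 19.8 CPM in A. Again the groups did not overlap (log2 fold change 1.89 ± 0.22; edgeR adjusted p = 3.33e-05). The calls of these 3 genes held without each replicate, while lef1 lost its call without the replicate block (adjusted p = 0.105).

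For dazl, vrtn and lef1 the C library of replicate 1 was the highest and that of replicate 3 the lowest, and this held for the next 2 genes. The ubiquitin ligase gene trim36 had 902, 667 and 399 CPM in C of replicates 1 to 3, against 226, 204 and 201 CPM in A. For sulf1, an extracellular sulfatase that edits heparan sulphate, the values were 378, 281 and 149 CPM in C against 96.2, 77.6 and 64.3 CPM in A. Neither gene's groups overlapped, at log2 fold changes of 1.56 ± 0.20 and 1.70 ± 0.18 (edgeR adjusted p = 0.000119 and 9.58e-06). The trim36 call was lost without replicate 2 (adjusted p = 0.09995), and both were lost without the replicate block (0.167 for trim36 and 0.103 for sulf1). Over the 110 higher genes, the median log2 ratio of C over A was 1.17 in replicate 1, 1.04 in replicate 2 and 0.68 in replicate 3.

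**Figure D2:**
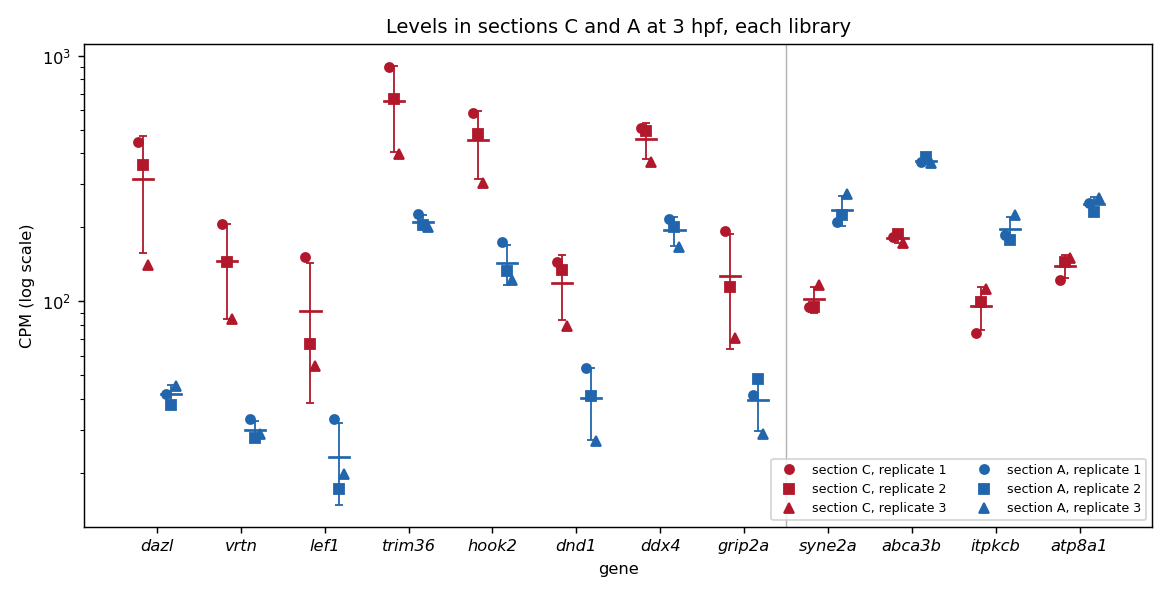
Levels of 8 genes higher and 4 genes lower in section C, in each library (log axis of CPM), with the mean as a line and the SD as a bar (n = 3 per section). For dazl, the 3 section C libraries sit between 141 and 447 CPM, all above the section A libraries at 37.9 to 45.3 CPM.

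The other genes among the 15 with the largest rises were of several kinds. They included the phosphatase gene ctdsplb (1.67 ± 0.19), the SH2 adaptor gene sh2d5 (1.68 ± 0.17), the transcription factor gene bach2a (1.65 ± 0.22) and the adhesion molecule gene lsamp (1.83 ± 0.37), which stood at 10.1, 8.70 and 8.15 CPM in C and 3.73, 1.32 and 2.62 CPM in A. The tyrosine kinase gene fer has 2 rows in the count table. The row fer had a log2 fold change of 1.62 ± 0.26 and fer_1 one of 1.61 ± 0.22. In section C the row fer had 29.8, 27.9 and 15.4 CPM and fer_1 had 13.1, 12.8 and 34.5 CPM, so replicate 3 split the reads between the rows in another proportion, and each row's level is uncertain. In section A fer had 9.96, 6.62 and 6.98 CPM and fer_1 had 3.73, 3.97 and 12.9 CPM. The row fer_1 overlapped between sections, although C was higher in each replicate, and the row fer did not overlap. Of the genes in this paragraph, lsamp and fer lost their calls without replicate 1 (edgeR adjusted p = 0.0538 for each), and bach2a (0.0889), lsamp (0.577) and fer (0.278) without replicate 2. Without the replicate block lsamp (0.236), fer (0.262) and fer_1 (1.00) lost theirs.

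Dorsal determination depends on maternal RNAs that are moved away from the vegetal pole. The membrane protein gene hwa, whose product is needed for dorsal beta-catenin, had 53.6, 29.5 and 25.6 CPM in C, against 9.78, 9.70 and 16.3 CPM in A. All C libraries exceeded all A libraries (log2 fold change 1.55 ± 0.29; edgeR adjusted p = 0.00586). The scaffold gene grip2a had 193, 115 and 71.0 CPM in C and 41.8, 48.3 and 28.8 CPM in A. The kinesin linker gene sybu had 295, 229 and 188 CPM in C, against 81.3, 86.9 and 108 CPM in A. Neither of these overlapped between sections either, with log2 fold changes of 1.59 ± 0.26 and 1.33 ± 0.22 (edgeR adjusted p = 0.00126 and 0.00154). The beta-catenin gene ctnnb2 was higher by a smaller amount, at 1075, 932 and 921 CPM in C and 727, 658 and 630 CPM in A (0.54 ± 0.10; edgeR adjusted p = 0.00700). Calls were lost without replicate 2 for hwa (edgeR adjusted p = 0.473), grip2a (0.0591), sybu (0.301) and ctnnb2 (0.460), and without replicate 1 for hwa (0.157) and ctnnb2 (0.0602). None of the 4 passed without the replicate block, at adjusted p from 0.111 to 0.402.

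The gene lists here and below were chosen with earlier results of these data known, so their counts are described and not tested. Of 15 maternal RNAs listed for their vegetal position, 10 were higher in section C and 0 were lower, with a median log2 fold change of 1.33 against 0.0072 over all genes tested, of which 0.871% were called higher. Besides those above, slbp2, which binds histone mRNA, rose by 1.11 ± 0.22 and eomesa, a T-box transcription factor gene, by 0.88 ± 0.16. The 5 that did not pass were birc2 (1.22 ± 0.74), rbpms2a (0.54 ± 0.20), rbpms2b (0.19 ± 0.12), ybx1 (0.10 ± 0.08) and macf1a (-0.32 ± 0.14). Without replicate 1, 2 or 3, the list gave 7, 3 and 10 genes higher, and without the replicate block 2. Over all genes, these fits called 43, 16, 139 and 16 higher. The slbp2 call was lost without replicate 1 (edgeR adjusted p = 0.228) or 2 (0.473), and that of eomesa without replicate 2 (0.344). The list's median log2 ratio was 1.86, 1.24 and 0.78 in replicates 1, 2 and 3.

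Of 15 germ plasm RNAs, 7 were higher in C and 0 were lower, with a median of 1.00. Over all genes tested, 0.871% were called higher. At an unadjusted p under 0.05, which 5.89% of all genes reached, the list held 12 of the 15. The 7 called were dazl, the dynein adaptor gene hook2, the calcium and calmodulin-dependent kinase gene camk2g1, the RNA-binding protein genes dnd1 and celf1, the helicase gene ddx4, known as vasa, and gra. The dnd1 RNA, whose product protects germ cell RNAs from miR-430, had 144, 135 and 79.1 CPM in C, against 53.3, 41.2 and 27.0 CPM in A (1.54 ± 0.22; edgeR adjusted p = 0.000311). The ddx4 RNA had 507, 491 and 368 CPM in C and 217, 200 and 166 CPM in A (1.23 ± 0.22; edgeR adjusted p = 0.00455). Neither gene's groups overlapped. The ddx4 call was lost without replicate 1 (edgeR adjusted p = 0.0858) and without replicate 2 (0.284), and those of hook2 (0.0889) and celf1 (0.0924) without replicate 2. Without the replicate block camk2g1 stood at an edgeR adjusted p of 0.076, dnd1 at 0.0758 and ddx4 at 0.142. Of the 7 calls, 3 held without replicate 2 and 2 without the replicate block, so not every lost call is named here.

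The germ plasm organiser gene buc was at a log2 fold change of 0.22 ± 0.09 and did not pass (edgeR adjusted p = 0.583). The translational regulator gene nanos3 (0.81 ± 0.20; edgeR adjusted p = 0.0586), ca15b (1.16 ± 0.39; 0.335) and the Tudor domain genes tdrd7a (0.65 ± 0.22; 0.345) and tdrd6 (-0.12 ± 0.09; 1.00) did not pass either. The list gave 6, 3 and 8 genes higher without replicate 1, 2 or 3, and 2 without the replicate block. Over all genes, these fits called 43, 16, 139 and 16 higher. The list's median log2 ratio was 0.71, 1.31 and 0.99 in replicates 1, 2 and 3. Among 12 piRNA pathway genes, which silence transposons in the germ line, ddx4 was the 1 gene called (0 without replicate 1 or without replicate 2), and piwil1 (0.01) and piwil2 (-0.41) did not pass. At an unadjusted p under 0.05 the list held 4 of the 12 (5.89% of all genes reached it). In the 6-library fit 1 of the 12 was called higher and 3 lower, against 313 and 210 of all 12310 genes.

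The section A side held fewer and smaller differences. For syne2a, which encodes nesprin-2 of the nuclear envelope, section C had 94.5, 95.1 and 116 CPM and section A had 210, 224 and 272 CPM. The groups did not overlap (log2 fold change -1.20 ± 0.13; edgeR adjusted p = 2.18e-05). The lipid transporter gene abca3b was even more uniform, at 183, 188 and 173 CPM in C and 370, 386 and 364 CPM in A (-1.05 ± 0.16; edgeR adjusted p = 0.000742). Both groups were narrow and lay far apart. Both calls held without each replicate, and abca3b lost its call without the replicate block (edgeR adjusted p = 0.0944).

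Further genes among the 15 largest falls had functions of several kinds. The phospholipid flippase gene atp8a1 had 123, 145 and 151 CPM in C, against 251, 231 and 264 CPM in A (-0.84 ± 0.11; edgeR adjusted p = 7.14e-05). The acyl-CoA synthetase gene acsl3b had 62.8, 64.4 and 114 CPM in C and 112, 96.2 and 182 CPM in A, which overlapped between sections although C was lower in each replicate (-0.69 ± 0.11; edgeR adjusted p = 0.000742). The membrane channel gene tmem63a (-0.88 ± 0.14), the palmitoyltransferase gene zdhhc18a (-0.73 ± 0.15), the calsyntenin gene clstn1 (-0.81 ± 0.19) and the semaphorin gene sema6cb (-0.71 ± 0.15) were lower as well. The kinase gene itpkcb, which phosphorylates inositol trisphosphate, had 74.6, 99.6 and 112 CPM in C and 185, 178 and 225 CPM in A (-1.05 ± 0.17; edgeR adjusted p = 0.00140).

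The rest of the 15 were the metalloprotease genes adam8a (-1.14 ± 0.23) and bmp1a (-0.72 ± 0.15), the ubiquitin ligase gene traip (-0.89 ± 0.21), the cytoskeletal linker gene gas2l3 (-0.72 ± 0.16), ccdc102a (-1.09 ± 0.22) and tnfaip8l1 (-0.74 ± 0.16). Of the 15 largest falls, the calls of syne2a, abca3b and atp8a1 held without each replicate. Without replicate 2 the other 12 lost theirs (edgeR adjusted p from 0.0567 to 0.911), without replicate 1 adam8a, clstn1, gas2l3, sema6cb, traip and zdhhc18a did (0.0511 to 0.505), and without replicate 3 sema6cb did (0.101). Without the replicate block syne2a and atp8a1 kept their calls. With DESeq2 in place of edgeR, ccdc102a did not pass (adjusted p = 0.162).

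Maternal RNAs listed for an animal position were lower in C on average without passing. Of 8 such genes, 0 were called by edgeR in either direction and 7 had an unadjusted p under 0.05 (5.89% of all genes did), each lower in C, with a median log2 fold change of -0.55. The pluripotency factor gene pou5f3 had 571, 621 and 849 CPM in C and 871, 916 and 1061 CPM in A, which did not overlap (-0.50 ± 0.13; edgeR adjusted p = 0.0674). The exonuclease gene exd2 had 148, 161 and 206 CPM in C and 269, 227 and 272 CPM in A (-0.60 ± 0.21; edgeR adjusted p = 0.396). The Nodal signalling factor gene foxh1 was at -0.75 ± 0.21, the mitotic inhibitor gene fbxo5 at -0.61 ± 0.19 and the cyclin gene ccnb1 at -0.31 ± 0.08. By fit, 7 of the 8 passed in the 6 libraries alone (523 of all 12310 genes did). With DESeq2 2 passed (165 of 12625), and without replicate 3 it was 3 (184 of 12365). None of the 8 passed without replicate 1, without replicate 2 or without the replicate block, where 52, 19 and 18 of all genes did.

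**Figure D3:**
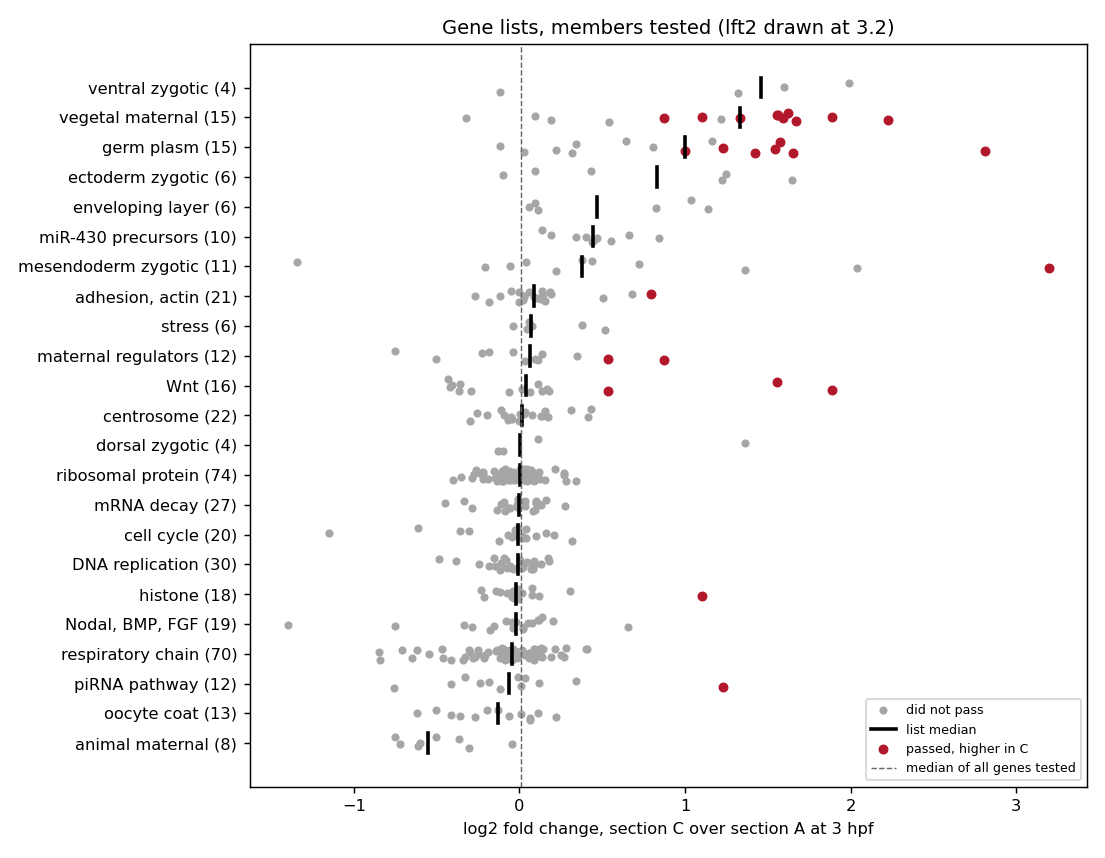
Log2 fold change of section C over section A at 3 hpf for the tested members of each gene list with at least 3 of them (number in parentheses), with the list's median as a bar and the median of all genes tested as a dashed line. Vegetal and germ plasm RNAs lie to the right, at medians of 1.33 and 1.00, animal RNAs to the left at -0.55, and ribosomal, respiratory chain, replication and cell cycle genes close to 0.

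The lists of general cell functions had medians close to that of all genes. None of 74 ribosomal protein genes passed (0 at an unadjusted p under 0.05), and their median log2 fold change was 0.0036. Of 70 respiratory chain genes, 30 DNA replication genes, 27 mRNA decay genes, 22 centrosome genes and 20 cell cycle genes, edgeR called 0, and the medians ran from -0.045 to 0.015. At an unadjusted p under 0.05, which 5.89% of all genes reached, they held 3, 2, 2, 2 and 4 genes. Without replicate 3, 2 of the 20 cell cycle genes were called lower, against 45 of all 12365 genes in that fit. In the 6-library fit 4 cell cycle, 2 DNA replication, 2 mRNA decay, 1 respiratory chain and 1 ribosomal protein gene were called lower and 0 higher. Of all 12310 genes in that fit, 210 were lower and 313 higher. That fit called 1 centrosome gene in each direction. Of 18 histone supply genes, slbp2 was the 1 called, and 0 were called without replicate 1 or without replicate 2. Egg coat and oocyte genes had 0 of 13 called by edgeR, 4 with p under 0.05 before adjustment and a median of -0.13, and 6 stress genes had 0, 0 and 0.069 for these quantities. Of 12 maternal regulators of genome activation, eomesa and ctnnb2 were higher, against 0.871% of all genes, and 5 had an unadjusted p under 0.05. Without replicate 1, 2 and 3 this list gave 1, 0 and 2 higher, and without replicate 3 also 1 lower. It gave 3 higher and 2 lower in the 6-library fit, 2 higher and 1 lower with DESeq2, and 0 without the replicate block. The homeobox factor gene nanog had 1244, 1138 and 1276 CPM in C and 1146, 1095 and 1188 CPM in A, and sox19b had 693, 694 and 825 CPM in C and 756, 701 and 808 CPM in A. Both overlapped between sections, at log2 fold changes of 0.09 ± 0.07 and -0.04 ± 0.08. The nuclear attachment gene lrmp was also level, with 429, 477 and 410 CPM in C and 484, 428 and 437 CPM in A.

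Signalling genes were examined in the same way. Of 16 Wnt pathway genes, lef1, hwa and ctnnb2 were higher, against 0.871% of all genes, and the list's median was 0.038. At an unadjusted p under 0.05, which 5.89% of all genes reached, the list held 8 of the 16. Without replicate 1, 2 and 3, 1, 1 and 3 were higher, and without replicate 3 also 1 was lower. The receptor gene fzd7b (-0.41 ± 0.12), the coreceptor gene lrp5 (-0.36 ± 0.11), the repressor gene tcf7l1a (-0.43 ± 0.14) and the scaffold gene axin1 (-0.37 ± 0.14) did not pass. In the 6-library fit, where 523 of 12310 genes passed, 3 of the 16 Wnt pathway genes were higher and 4 lower. Of 19 Nodal, BMP and FGF signalling genes, edgeR called 0 (2 had p under 0.05 before adjustment), and the median was -0.022. Among 21 adhesion and actin genes, anln, which encodes the cytokinesis scaffold anillin, was the 1 that rose, with 822, 592 and 544 CPM in C and 390, 354 and 362 CPM in A (0.79 ± 0.16; edgeR adjusted p = 0.0117). Without replicate 2 (edgeR adjusted p = 0.461) and without the replicate block (0.876) it did not pass, and without replicate 3 the list had 3 genes called higher.

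Section C lay between the ends for nearly all of the called genes. Of the 110 genes higher in C, 99 had their highest mean in section E, 8 in D and 3 in C itself, and for 99 the means rose at every step from A to E. The choice of genes by C against A largely sets the order of A and C in advance. The same counts over all genes tested are not given here. The median log2 fold change of these 110 against A was 0.96 in C, 2.13 in D and 3.09 in E, all measured against the same A libraries. The mean of dazl was 41.8 CPM in A, 71.8 in B, 315 in C, 1434 in D and 3744 in E. The 3 genes highest in C were rassf3 (0.48), rsf1a (0.44) and si:ch211-241j12.4 (1.00), picked out after their values were seen. For rassf3 the mean was 188 ± 20.9 CPM in C and 162 ± 21.7 in B (SD, n = 3). For rsf1a it was 124 ± 13.2 in C and 122 ± 14.5 in D, and for si:ch211-241j12.4 309 ± 60.5 in C and 252 ± 112 in D. Which section was highest is thus uncertain for these 3. The 8 highest in D included hook2 and ddx4, whose means were 991 and 503 CPM in D and 932 and 447 CPM in E. For both genes, D and E differed by less than their SDs, 277 and 323 CPM for hook2 and 97.5 and 231 CPM for ddx4.

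All 25 genes lower in C had their highest mean in A, and 22 fell at every step to E. Here too, A above C follows from the choice of genes, and the counts over all genes are not given. Their median against A was -0.72 in C, -1.23 in D and -1.86 in E. The abca3b mean, for instance, was 373 CPM in A, 276 in B, 181 in C, 78.1 in D and 46.7 in E.

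**Figure D4:**
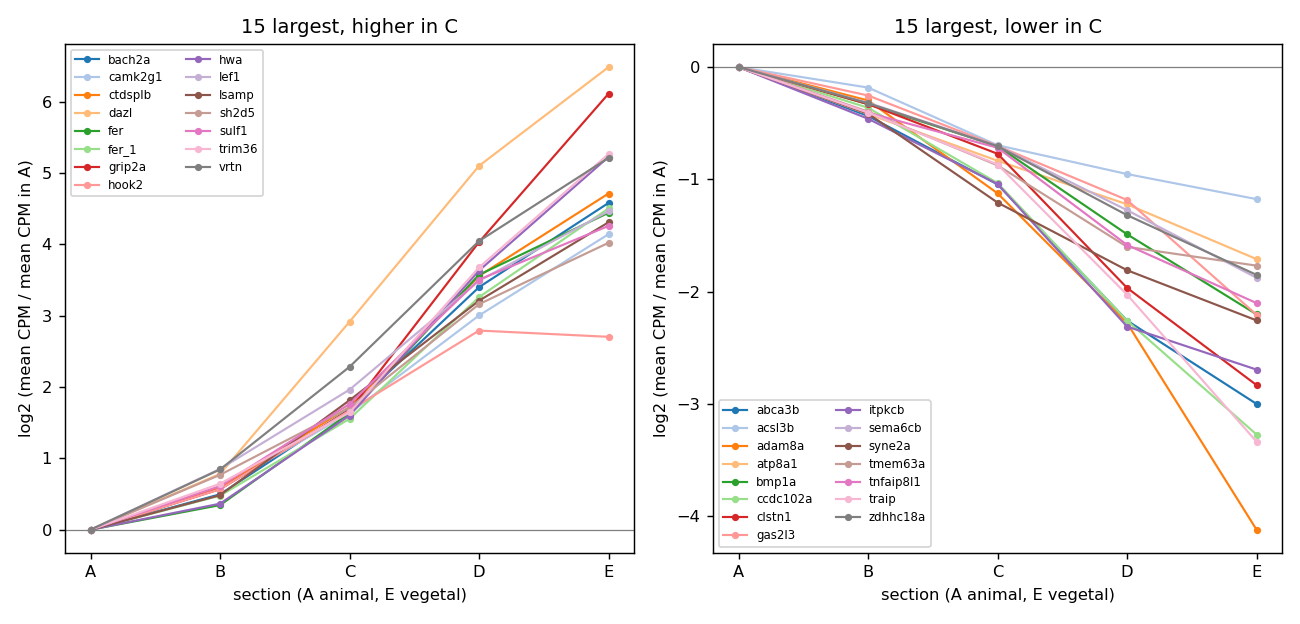
Mean CPM in each section at 3 hpf relative to section A (log2) for the 15 largest rises (left) and the 15 largest falls (right) in C, n = 3 libraries per section. Most lines keep their direction through C into D and E, so that C holds an intermediate level.

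RNAs that rose from 1 to 3 hpf were described by a rule chosen after the data were seen, which did not use 2 hpf. It asked for at least 1 CPM over all sections at 3 hpf and 8 times the level at 1 hpf or more. The rule took 50 genes, 13 of them miR-430 precursor rows. They are called newly detected here, although some had reads at 1 hpf, such as sox3 with 158 (2.14 CPM). Of the 50, 1 was called in the comparison of C with A (lft2, higher) and 17 had an unadjusted p under 0.05 (5.89% of all genes did), 16 higher and 1 lower in C. The pooled level was higher in C for 46 of the 50, against 46.9% of all 12625 genes. This count depended on the replicate: it was 23 in replicate 1 alone and 44 in each of replicates 2 and 3.

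The summed level of the 50 in each library shows how far the replicates differed. It was 385, 354 and 741 CPM of the library total in C of replicates 1, 2 and 3, against 339, 78.5 and 497 in A. In D it was 72.4, 347 and 737, and in E 45.7, 30.5 and 16.3. Section C was higher than A in each replicate, by little in replicate 1 and by several fold in replicate 2. Section E had the lowest sum in each replicate, while D of replicate 1 was far below D of replicate 3.

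**Figure D5:**
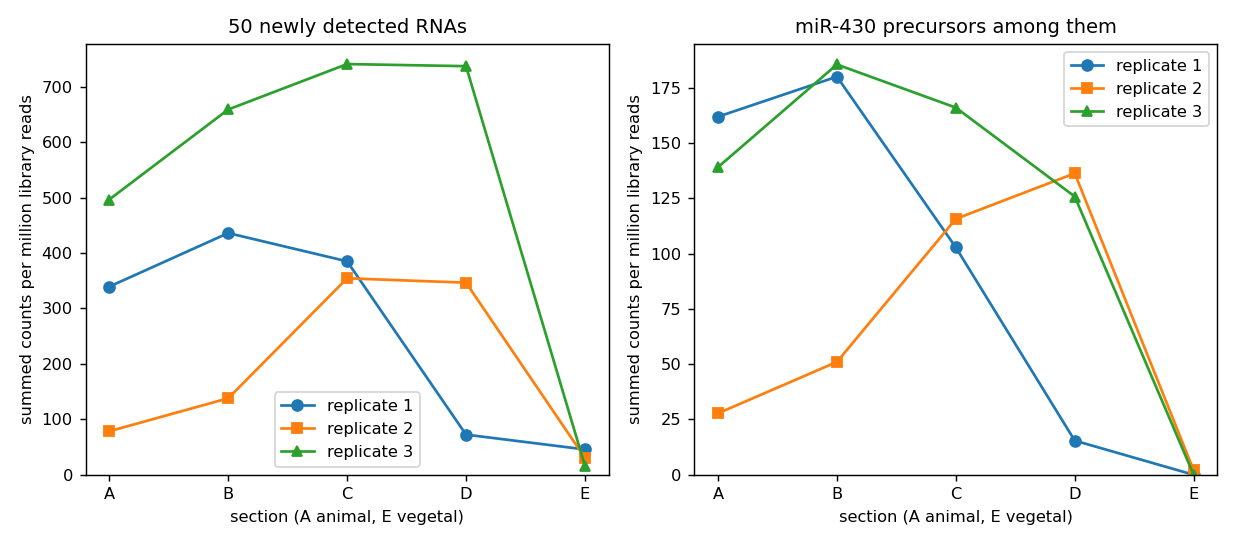
Summed level (CPM of the library total) of the 50 RNAs at least 8 times their 1 hpf level, titled newly detected (left), and of the 13 miR-430 precursor rows among them (right) in sections A to E at 3 hpf, 1 line per replicate. In replicate 2 section A stands at 78.5 and section C at 354, whereas in replicate 1 they stand at 339 and 385.

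The miR-430 genes, whose microRNAs promote the clearance of maternal mRNAs, did not share a direction across replicates. Their summed level was 103, 116 and 166 in C, against 162, 27.8 and 139 in A. Replicate 1 was lower in C and replicates 2 and 3 were higher. None of the 13 rows passed with edgeR, and 0 had an unadjusted p under 0.05, with log2 fold changes from -0.27 to 0.84 and a median of 0.40. The rows are near-identical copies, so how reads were shared among them is uncertain. The pooled level was higher in C for 11 of 13 rows, and without replicate 2 for 4.

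The other 37 had a median log2 fold change of 1.03. The Nodal antagonist gene lft2 had 20, 21 and 20 reads in C and none in A, which is at least 21.9-fold higher taking 3 counts over the A group as the floor (edgeR adjusted p = 0.0178). Its level in D averaged 5.06 CPM with an SD of 5.55. The call rested on all libraries: the adjusted p was 0.0796, 0.484 and 0.0557 without replicate 1, 2 or 3, and DESeq2 gave no adjusted p.

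Further early zygotic transcription factor genes were higher on average in C without passing. The Iroquois gene irx7 had 20.3, 19.6 and 30.2 CPM in C and 4.27, 0.441 and 18.7 CPM in A, which did not overlap (2.04 ± 0.52; edgeR adjusted p = 0.0770). The ventral repressor gene vox had 15.7, 24.9 and 36.3 CPM in C, against 6.05, 3.53 and 18.5 CPM in A, with replicate 1 of C below replicate 3 of A (1.60 ± 0.54; edgeR adjusted p = 0.335). For the Hairy-related gene her5 the C libraries held 7.20, 8.10 and 40.8 CPM and the A libraries 8.89, 0.221 and 29.2 CPM, so replicate 1 ran the other way (0.72 ± 0.48; edgeR adjusted p = 1.00). Replicate 3 had the highest values in both sections for these 3 genes.

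Genes of the enveloping layer, the outer epithelium of the blastula, did not pass either. The Krüppel-like factor gene klf17 had 45.8, 34.6 and 62.1 CPM in C and 24.2, 10.4 and 40.1 CPM in A, with overlap between replicates but C higher in each (1.03 ± 0.34; edgeR adjusted p = 0.292). The gata3 gene had 12.1, 15.2 and 17.4 CPM in C and 7.65, 5.29 and 7.19 CPM in A, without overlap (1.14 ± 0.58; edgeR adjusted p = 0.921). Its SE is of the 15-library fit, where section D had a mean of 12.1 CPM with an SD of 12.1 CPM. The epithelial factor gene grhl3 had 3.92, 3.76 and 11.1 CPM in C and 3.02, 0.882 and 7.41 CPM in A (0.82 ± 0.62; edgeR adjusted p = 1.00). A further row of this gene, grhl3_1, had 17, 23 and 44 reads in C and 14, 1 and 11 in A. Its log2 fold change was 1.85 ± 0.69 (edgeR adjusted p = 0.484, unadjusted 0.0147). How reads were split between the rows is uncertain, and the list counts that follow use the row grhl3 alone. Of the 6 enveloping layer genes measured, 0 passed with edgeR and 1 had an unadjusted p under 0.05 (5.89% of all genes did), and their median was 0.47. In the 6-library fit irx7, vox, klf17 and gata3 did pass.

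By kind, the list of mesoderm and endoderm genes had lft2 called among 11 (median 0.38), with noto outside it at 2.57 and aplnrb within it at -1.34, neither called. Of 4 ventral genes (median 1.46), 6 ectoderm genes (0.83) and 4 dorsal genes (0.0040), 0 passed with edgeR. At an unadjusted p under 0.05, which 5.89% of all genes reached, these lists held 2, 3 and 1. In the 6-library fit, 1 of 2 ventral, 2 of 6 ectoderm and 0 of 4 dorsal genes were called higher, against 313 of all 12310 genes. Of the yolk syncytial layer list 1 gene was measured, at 0 to 7.78 CPM in C and 0 to 6.98 CPM in A. Ovarian follicle genes summed to 0.327 to 11.7 CPM in C and 0 to 6.76 CPM in A over 2 genes. Maternal liver and blood genes were not measured here. The part of these other tissues in the results was not tested.

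The last comparison asked whether the C-to-A difference at 3 hpf differed from that of the same sections at 1 hpf. In a fit of the 30 libraries of both stages, 13 of 12667 genes (0.103%) passed edgeR's test of the change, 12 toward C and 1 toward A, and 514 (4.06%) had an unadjusted p under 0.05. At 1 hpf the A library of replicate 1 was shallow, with 1466522 counts, and in that replicate 271 of 9501 genes differed between C and A by over 1 log2 unit, against 11 and 17 genes in replicates 2 and 3. The 12 had differences at 1 hpf from -0.13 to 0.58 (log2, C minus A), smaller than at 3 hpf, which a choice by the change between stages favours. Of them dazl had 0.58 ± 0.33 and vrtn 0.47 ± 0.24, and for vrtn the C libraries at 1 hpf (41.1, 39.9 and 45.9 CPM) all lay above the A libraries (38.4, 35.0 and 24.1 CPM). All 13 calls were lost without replicate 1, without replicate 2 and without the replicate block, and 138 genes passed without replicate 3.

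In the scaling of this fit, the dazl libraries at 1 hpf held 80.6, 60.7 and 81.6 CPM in C and 80.0, 53.4 and 29.5 CPM in A, a difference of 0.58 ± 0.33. At 2 hpf, with 2 replicates and TMM scaling over all 40 libraries, the dazl level was 109 and 192 CPM in C and 25.9 and 30.4 CPM in A, given without a test. The change from 1 to 3 hpf was 2.23 ± 0.46 (edgeR adjusted p = 0.0440). For dnd1 the means at 3 hpf were 120 ± 35.1 CPM in C and 41.0 ± 13.3 CPM in A (SD, n = 3 each), and at 1 hpf 92.1 ± 7.94 CPM in C and 95.8 ± 25.0 CPM in A, a change of 1.55 ± 0.30 (edgeR adjusted p = 0.0282). The mean of dnd1 was thus lower in A and higher in C at 3 hpf than at 1 hpf, and neither section was tested between stages.

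The centrosome gene pcnt, which encodes pericentrin, was the 1 gene that changed toward A. At 3 hpf it was level, with 1061, 1091 and 950 CPM in C and 1190, 1073 and 1096 CPM in A. At 1 hpf it had 1332, 1223 and 1555 CPM in C and 189, 279 and 690 CPM in A, without overlap (1.92 ± 0.30). At 2 hpf, scaled over all 40 libraries and not tested, it had 860 and 772 CPM in C and 1712 and 1387 CPM in A, so C lay below A in both replicates of that stage. The change was -2.04 ± 0.41 (edgeR adjusted p = 0.0357). The remaining genes that changed toward C were vrtn (1.75 ± 0.32), ccdc88c (1.52 ± 0.26), hook2 (1.52 ± 0.32), the importin gene kpna6 (1.43 ± 0.25), camk2g1 (1.33 ± 0.26), the lysosomal scaffold gene lamtor1 (1.30 ± 0.23), the chloride channel gene clic4 (1.13 ± 0.24), rab40c (0.93 ± 0.19), the inositol trisphosphate kinase gene itpkca (0.82 ± 0.15) and arhgef11 (0.74 ± 0.16).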

How the data were processed

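RNA-seq of 5 sections of zebrafish embryos at 3 stages was deposited by the authors as raw read counts per gene in 1 table of 12670 rows and 40 libraries, per the file headers. Each row has at least 60 counts in all, so low genes were left out before deposit by a rule not given in the sources used here. The 5 sections of 2 hpf replicate 3 were not analysed here. Directional libraries were made from equal amounts of rRNA-depleted RNA after TRI reagent and lithium chloride extraction, per the labels' protocols. The tools named are DESeq2, HTSeq 2.0.4, STAR 2.7.11 and fastp 0.23.4, with genome build GRCz11, per the submitters' processing notes. The strand setting of the counting is not given in the sources used here, so overlapping antisense genes are uncertain. So are the 1082 rows with a copy number, in which near-identical copies can split reads.

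The test was edgeR's quasi-likelihood test (edgeR 4.0.16 in R 4.3.3) with TMM, filterByExpr and Benjamini-Hochberg at 0.05. All 15 libraries of 3 hpf entered 1 fit with the replicate number as a block, since sections of 1 number are cuts of the same biological replicate. As a check, the deviations of C and A of the same number correlated at 0.654, 0.714 and 0.888. Those of C and A of numbers 1 and 2 crossed correlated at 0.518 and 0.44, so the check sets number 3 apart more than it tells 1 from 2, and the pairing rests on the labels. The change from 1 to 3 hpf was the stage by section interaction in 30 libraries with a block per embryo sample. SE is the absolute log2 fold change over the root of F. Per-replicate log2 ratios used a pseudocount of 0.5 CPM. The code was tested on simulated counts.

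Named genes were the 15 largest calls in each direction (3 of 3 replicates, at least 5 CPM, descriptive symbol), up to 4 called members per list with the smallest p, 16 fixed genes and the 5 largest stage changes per direction. Other list members are named to account for their list. The comparison, lists and rules were chosen with earlier results of these data known, so lists are described and not tested. Where a symbol had several rows, its list took the one with most counts. The spread behind each SE and p-value is that between the libraries of its fit, which may be technical in part. In the main fits these are the libraries of sections A to E, and not of C and A alone. Alternatives were library totals or DESeq2 size factors as scaling, no filter, DESeq2 1.42.0, no replicate block, 2 sections alone and leaving out each replicate.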

Additional observations from a re-analysis of the deposited data

Results flagged for a closer look

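Of the genes named, 7 had a C-to-A difference that differed between 3 hpf and 1 hpf by edgeR's interaction test. Toward C, the changes (log2, 3 hpf minus 1 hpf) were 2.23 for dazl (adjusted p = 0.0440), 1.75 for vrtn (0.0185), 1.55 for dnd1 (0.0282), 1.52 for ccdc88c (0.0165), 1.52 for hook2 (0.0440) and 1.33 for camk2g1 (0.0352). Toward A, it was -2.04 for pcnt (adjusted p = 0.0357). The difference at 1 hpf was between -0.02 and 0.58 for the first 6 and 1.92 for pcnt. None of the 7 passed without replicate 1, without replicate 2 or without the replicate block, and all 7 passed without replicate 3 and with both other scalings, no filter, DESeq2 and the 12 libraries of sections C and A.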

How the results depend on the processing

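For C against A at 3 hpf, 135 genes passed. The count was 135 with DESeq2 size factors, 140 with library totals, 135 with no filter and 165 with DESeq2 (124 shared). Without the replicate block it was 18 (16 higher, 2 lower), in the 6 libraries alone 523 (313 higher, 210 lower), and leaving out 1 replicate gave 19 to 184. For the change from 1 to 3 hpf, 13 passed, against 13, 16 and 13 with those scalings and no filter. DESeq2 gave 28 and the 12 libraries alone 120. The fit without the replicate block gave 0 (215 at an unadjusted p under 0.05), and leaving out 1 replicate gave 0 to 138. The cause of these differences was not tested. 

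Of 40 named genes called, 40 kept their call with both scalings, no filter and the 6 libraries. Without the replicate block 31 lost it, and without replicate 1, 2 and 3, 13, 27 and 2 (lft2 and sema6cb) did. DESeq2 gave 3 of them no adjusted p. Among uncalled values, 2 changed sign without replicate 1: lrmp to 0.039 and sox19b to 0.0081 (leaving out 1 replicate gave -0.15 to 0.039 and -0.081 to 0.0081). The replicates differed in how newly detected RNAs were spread over the sections.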
